A study of Mus musculus with 23 samples.

Results

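The 40 genes described here encode the enzymes and partner proteins that write, read or remove methyl groups on DNA and histones, together with the subunits of the Polycomb repressive complexes. They were named in a list, and each was represented by 1 probe set, the one with a single gene symbol and the highest mean over all 23 arrays. Of the 40, 39 had such a probe set, among 18193 genes on the array that did. Suv39h1, which encodes a histone H3K9 methyltransferase, was the exception and was not analysed here. All 39 also passed the filter on low values, which asked for 2 or more arrays with a value past the array's own 40th percentile and kept 15378 genes. In 34 of the 39 every value lay above the median of its array; Tet1, Tet3, Cbx2, Cbx8 and Pcgf1 fell below it on some arrays. None was listed at 0 on any array.

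The study measured gene expression with Affymetrix arrays in epithelial cell types isolated from mammary tissue of C57BL/6 females, mice of an inbred strain. Its title names DNA methylation in mammary epithelial stem cells and its change with pregnancy as the question. The labels name 3 cell types (stem, luminal progenitor and mature luminal cells) and 6 reproductive stages. They do not describe the surface markers used in the purification, whether glands were pooled, or whether arrays of a group came from separate animals, so a p-value reflects the spread among these arrays alone, and that spread may be technical. The stages were 3-week virgin (5 arrays), 9-week virgin (6), day-10 pregnant (5), day-16 pregnant (3), day-19 pregnant (1, of mature luminal cells) and retired breeder (3). By cell type there were 8 stem, 7 luminal progenitor and 8 mature luminal arrays. Of the 16 groups of 1 stage and 1 type, 7 had 2 arrays and 9 had 1. The labels give the same strain for all mice and name no transgene or treatment, and they give the ages of the virgins only. Retired breeders differ from 9-week virgins in breeding history and in age, and these cannot be told apart.

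DNA methylation is copied to the new strand after replication by DNMT1, which UHRF1 guides to hemimethylated sites, whereas DNMT3A and DNMT3B methylate new sites and the TET enzymes oxidise the methyl group, a first step of its removal. Polycomb repressive complex 2 (PRC2) methylates histone H3 on lysine 27 through EZH1 or EZH2, and Polycomb repressive complex 1 (PRC1) binds that mark through CBX proteins and ubiquitinates histone H2A through RING1 or RNF2. Methylation of H3 on lysine 4 marks promoters and enhancers, on lysine 36 the bodies of transcribed genes and on lysine 9 silent chromatin. In the mammary gland, Ezh2 and Bmi1 are known for roles in the growth of progenitors and in development during pregnancy.

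Some arrays stood apart. The deviations of the paired arrays from their group means went with the replicate number in the titles. Tests were therefore also run with a term for this number, called the replicate term below. It codes the 8 arrays titled replicate 1 against the other 15. Only the 7 groups of 2 inform its size, and between the arrays of these pairs 4874 of 15378 genes (31.7%) differed with the number. The 3-week mature luminal, day-10 luminal progenitor, day-16 and retired breeder arrays carry no replicate number. Coding them with the arrays not titled replicate 1 was an assumption that the labels do not settle. The 3-week mature luminal array and the retired breeder stem array had the largest excess of the 3′ over the 5′ Gapdh control, a sign of RNA degradation, at 5.16 and 3.77 log2 units against 0.87 to 2.72 on the other 21. The Gapdh excess ran from 1.97 to 3.77 on the retired breeder arrays and from 0.87 to 1.97 on the 9-week arrays. Its part in the differences between these stages was not tested. Of 12 basal markers 9 were lower in luminal progenitors and 11 lower in mature luminal cells than in stem cells. Their mean ran from 10.31 to 12.77 in stem cells, 7.65 to 11.32 in luminal progenitors and 7.36 to 9.92 in mature luminal cells. The highest progenitor value, on the day-16 array, thus lay within the range of the stem arrays. Against stem cells, 12 of 12 luminal markers were higher in both luminal types, with 2 and 4 past the test (7 and 11 with the replicate term). Their median differences were 0.79 and 1.03. The mean of the luminal markers ran from 9.82 to 11.56 in stem cells, 10.49 to 12.08 in luminal progenitors and 10.66 to 12.02 in mature luminal cells, so luminal transcripts were also measured in the stem cell arrays. The mean of 5 luminal progenitor markers ran from 9.39 to 10.39 in luminal progenitors. It ran from 7.96 to 10.34 in mature luminal and from 7.84 to 9.9 in stem cells, so the types overlapped. Among all arrays the mean of 10 fibroblast and stromal markers was highest on the luminal progenitor arrays of day 10 (9.62) and day 16 (10.02). That mean ran from 7.16 to 9.01 in stem cells and from 3.72 to 7.18 in mature luminal cells. The mean of 10 endothelial markers ran from 6.17 to 11.24 in stem cells, 5.29 to 7.84 in luminal progenitors and 4.85 to 7.86 in mature luminal cells. None of these 20 marker genes was listed at 0 on any array, and their part in the results below was not tested.

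Across the arrays, the distance between the lowest and the highest array had a median of 2.1 log2 units over the 39 members, from 1.26 for Nsd1 to 6.38 for Tet1, while the arrays of a pair differed by a median of 0.55. The 4 widest ranges belonged to Tet1, Tet3, Cbx8 and Cbx2, whose values lay partly below the array medians. The 3-week mature luminal array held the highest value of 8 members, and the day-19 array the lowest value of 6, beside 8.95% and 10.3% of all genes. These were the arrays with the highest and the lowest median of all probe sets, 5.47 and 4.51. They also had the highest and the lowest mean of the leukocyte markers, 8.98 and 3.7, and its part was not tested.

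**Figure D1:**
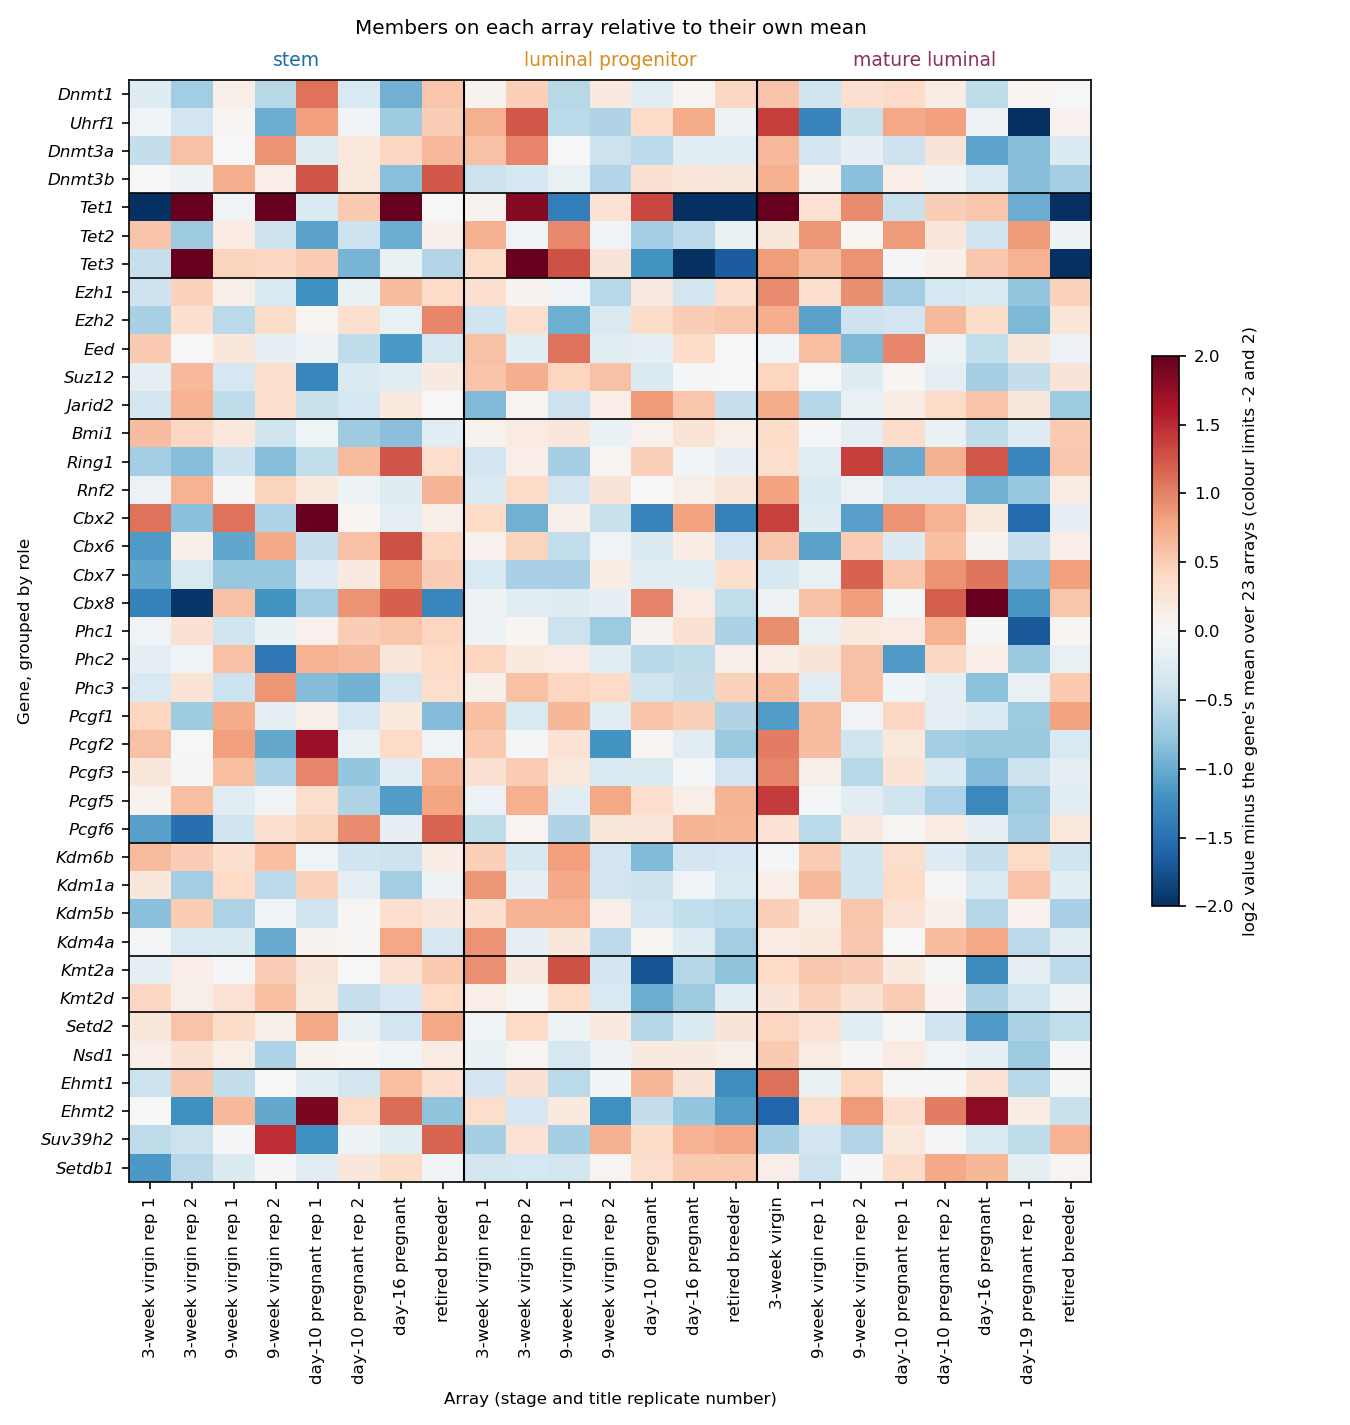
The log2 value of each of the 39 members (rows, grouped by role, lines between roles) on each of the 23 arrays (columns, by cell type and stage) minus the gene's mean over all arrays, with colours that end at -2 and 2. The deepest colours belong to Tet1 and Tet3, and the day-19 array is the lowest for 6 members.

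Between cell types, averaged over the 5 stages that have all 3, none of the 39 members passed the test, which was limma's moderated test with Benjamini-Hochberg adjustment over all 15378 genes and a threshold of 0.05. Among all genes 4.38% passed for luminal progenitors against stem cells, 8.34% for mature luminal against stem cells and 0.124% for mature luminal cells against luminal progenitors. With the replicate term the shares rose to 14.4%, 19.7% and 0.995%, and again no member was called. At an unadjusted p under 0.05 there were 2, 2 and 0 members, against 18.9%, 22.2% and 4.72% of all genes. The median member difference was -0.07, 0.06 and 0.06, beside -0.04, 0.03 and 0.02 over all genes. The first 2 comparisons share the stem cell arrays. For 27, 26 and 25 of the 39 members the 95% interval of the difference lay wholly within 1 log2 unit of 0, which leaves differences beyond 2-fold outside it. The median half-width of these intervals was 0.64, 0.64 and 0.66, which limits the differences that this number of arrays could resolve. Fewer cells of a type and less RNA per cell cannot be told apart in bulk samples such as these.

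**Figure D2:**
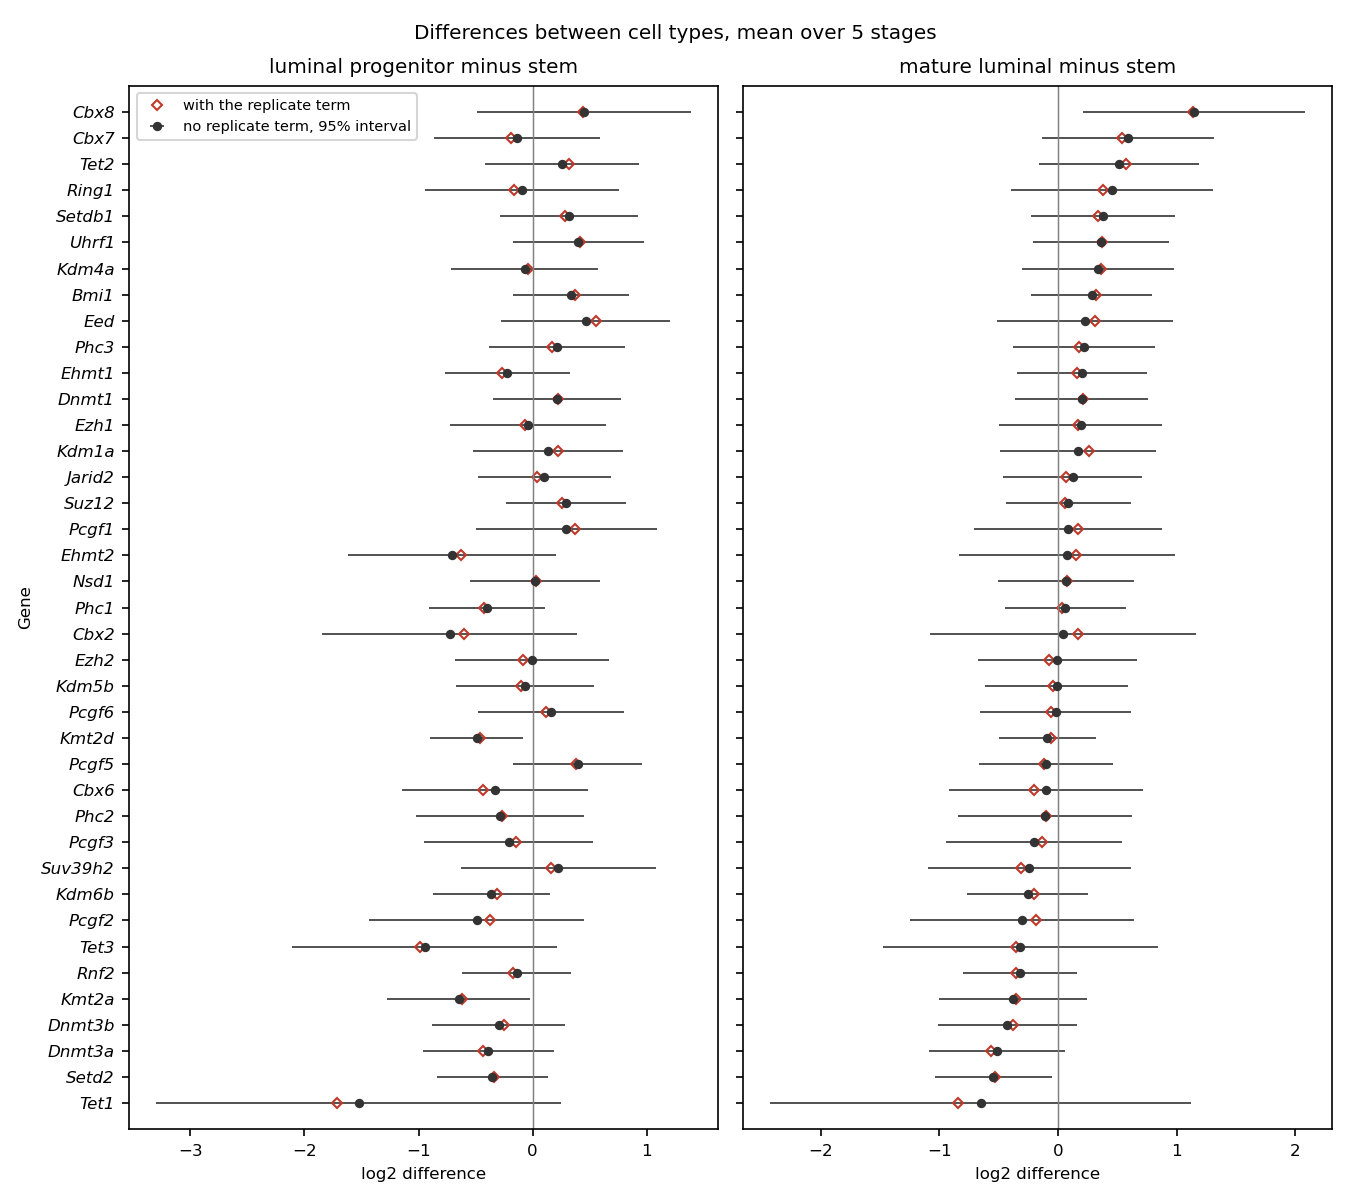
Log2 difference (x axis) of each member (y axis) between luminal progenitors and stem cells (left) and between mature luminal and stem cells (right), with 95% intervals (black) and the value with the replicate term (red diamonds). Cbx8 in mature luminal cells, at 1.15, and Tet1 in luminal progenitors, at -1.52, lie farthest from 0, and neither passed the test.

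Between stages, averaged over the 3 cell types, 1 member changed. Kmt2d was lower in pregnancy (the mean of days 10 and 16) than at 9 weeks, where 7.13% of all genes passed and 3.36% were lower. With the replicate term 15.6% of all genes and 3 members passed, namely Kmt2d and Phc3, both lower, and Uhrf1, higher. At 3 weeks against 9 weeks 0 members passed, with 0.176% of all genes, and 1 member, Uhrf1, passed with the replicate term, with 2.65% of all genes. Neither day 16 against day 10 (0% of all genes) nor retired breeders against 9-week virgins (0.0065%, or 0.0195% with the replicate term) called a member, with or without that term. Unadjusted p-values under 0.05 were found for 9 members in pregnancy, 3 at 3 weeks, 0 between days 16 and 10 and 4 in retired breeders, against 25%, 10.9%, 1.38% and 7.24% of all genes. The comparisons with 9-week virgins share those 6 arrays.

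The preparations also differed between stages. Of 7 milk protein genes 6 rose in pregnancy, with a median difference of 5.96. Of 28 cell cycle genes 14 rose, and 19 with the replicate term. Of 12 basal markers 4 rose, with a median of 1.23. Of 12 luminal markers 10 had a difference below 0 and 3 were called lower, with a median of -0.43. At 3 weeks the median difference was 1.81 for the endothelial and 1.78 for the leukocyte markers, with 1 of 10 and 0 of 9 called, and it was 1.72 for the fibroblast and stromal markers and 1.02 for the cell cycle genes, with 0 of 10 and 0 of 28 called. With the replicate term, under which Uhrf1 passed at 3 weeks, 4 of 10 endothelial (median 1.90), 1 of 10 fibroblast and stromal (1.68), 0 of 9 leukocyte (1.38) and 2 of 28 cell cycle genes (0.98) were higher. In retired breeders it was 2.28 for the fibroblast and stromal markers, with 0 of 10 called. Their part in the member results was not tested.

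**Figure D3:**
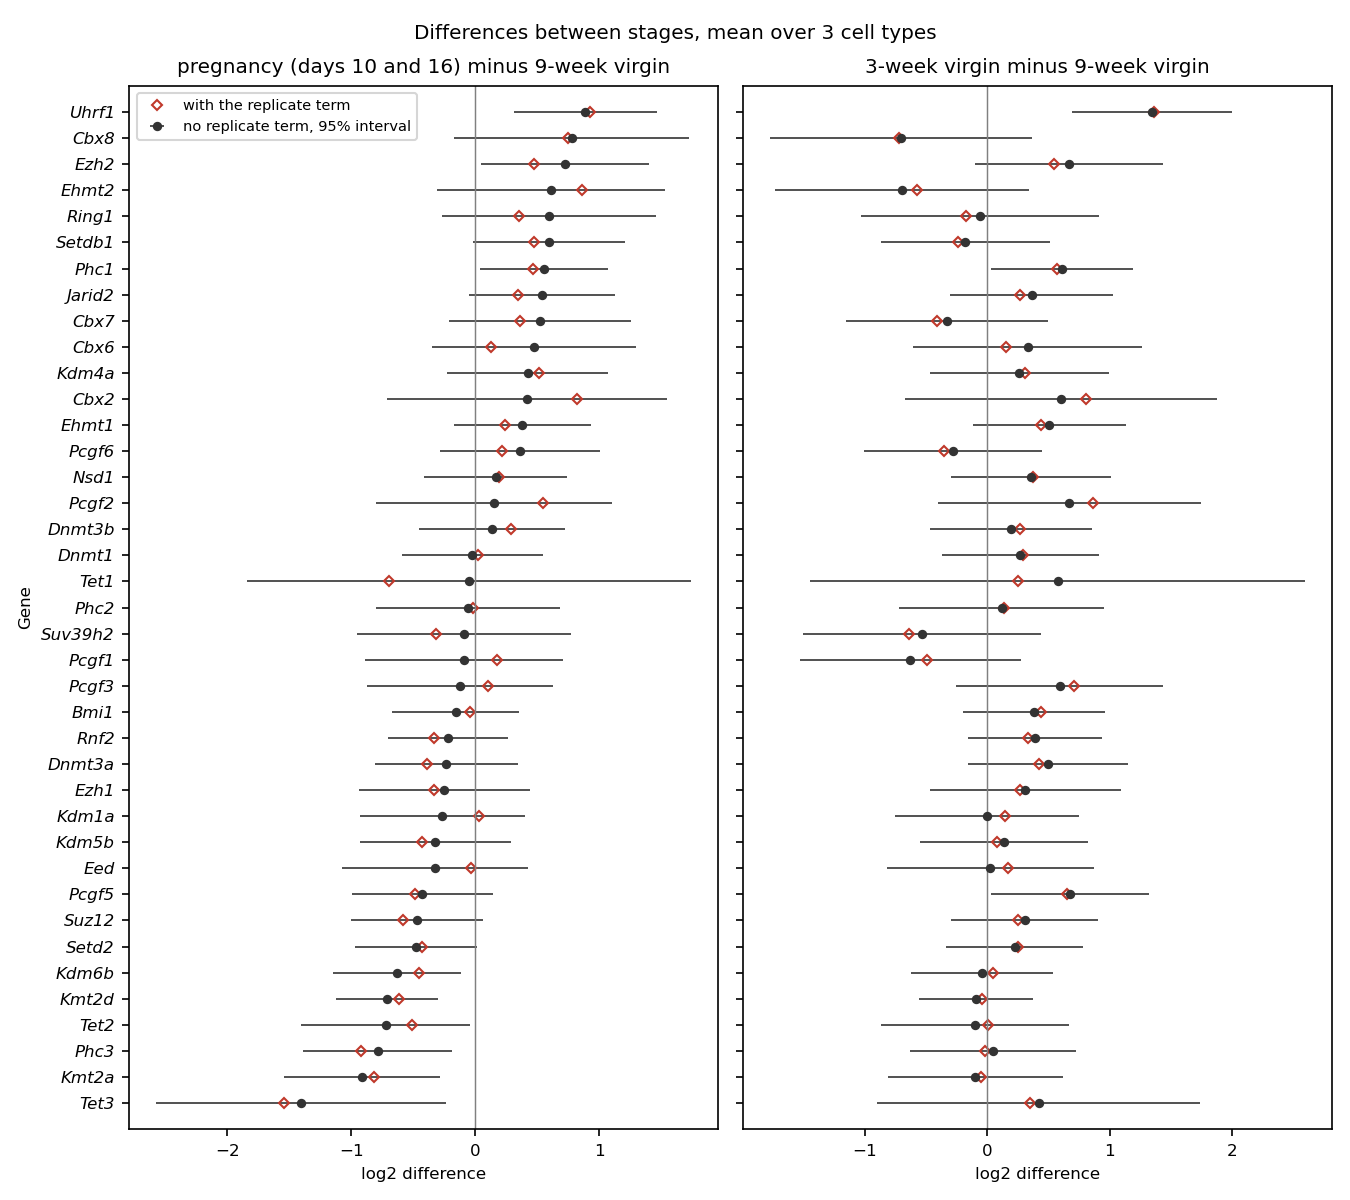
Log2 difference (x axis) of each member (y axis, same order in both panels) between pregnancy and 9-week virgins (left) and between 3-week and 9-week virgins (right), averaged over 3 cell types, with 95% intervals (black) and the value with the replicate term (red diamonds). Uhrf1 lies at the top of both panels, at 0.89 and 1.35, and Kmt2d, at -0.71 in pregnancy, has the interval -1.12 to -0.30.

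Among the maintenance enzymes, Uhrf1, the partner that brings DNMT1 to replicated DNA, varied most with stage. In stem cells its log2 values were 9.91 and 9.62 at 3 weeks, 10.04 and 9.01 at 9 weeks, 10.82 and 9.94 on day 10, 9.29 on day 16 and 10.49 in retired breeders, where a pair gives replicate 1 first here and below. Luminal progenitors gave 10.71 and 11.24 at 3 weeks, 9.47 and 9.40 at 9 weeks, 10.39 on day 10, 10.75 on day 16 and 9.90 in retired breeders. Mature luminal cells gave 11.38 at 3 weeks, 8.68 and 9.56 at 9 weeks, 10.78 and 10.82 on day 10, 9.88 on day 16, 7.86 on day 19 and 10.09 in retired breeders. In both luminal types every array of 3 weeks, day 10 and day 16 lay above both 9-week arrays, while in stem cells the 9-week pair overlapped the other stages. The difference from 9 weeks was 1.35 ± 0.30 (adjusted p = 0.102) at 3 weeks and 1.37 (adjusted p = 0.0244) with the replicate term. By cell type the 3-week difference ran from 0.24 to 2.26. Without the 3-week mature luminal array, which had the largest Gapdh excess, the mean over the other cell types was 0.89 (adjusted p = 0.962). In pregnancy the difference was 0.89 ± 0.26 (adjusted p = 0.0647) and 0.93 (adjusted p = 0.0298) with the replicate term, and it was above 0 in 3 of 3 cell types, from 0.31 to 1.22. Within the arrays titled replicate 1, where the pregnancy comparison uses day 10 alone, a model of stage plus cell type gave 1.58 (adjusted p = 0.117). Within the other arrays it gave 0.86 (adjusted p = 0.163), and these subsets called 1.99% and 3.36% of all genes. The paired groups hold day 10 of stem and mature luminal cells as their only pregnant groups. In them, with the replicate term, the pregnancy difference was 1.27 (adjusted p = 0.0346). Over all arrays without the term, the pregnancy difference passed when the 9-week stem replicate 1 array was left out (1.06). It also passed without the day-16 stem array (1.07), where stem cells contribute day 10 alone. Its second probe set gave 2.03 at 3 weeks and 1.42 in pregnancy. In retired breeders the difference was 0.80 ± 0.34 (adjusted p = 0.673). Against stem cells it differed by 0.40 ± 0.26 (adjusted p = 0.455) in luminal progenitors and 0.36 ± 0.26 (adjusted p = 0.473) in mature luminal cells.

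Dnmt1, the maintenance methyltransferase itself, passed no test. Its values in stem cells were 11.32 and 10.88 at 3 weeks, 11.68 and 11.01 at 9 weeks, 12.65 and 11.26 on day 10, 10.60 on day 16 and 12.13 in retired breeders. In luminal progenitors they were 11.64 and 12.04 at 3 weeks, 11.02 and 11.77 at 9 weeks, 11.34 on day 10, 11.62 on day 16 and 11.99 in retired breeders. The mature luminal arrays read 12.14 at 3 weeks, 11.17 and 11.89 at 9 weeks, 11.95 and 11.71 on day 10, 11.06 on day 16, 11.63 on day 19 and 11.57 in retired breeders. The highest and the lowest of all 23 arrays were both pregnant stem cells, the day-10 replicate 1 and the day-16 array, and the day-10 stem pair alone differed by 1.39. The pregnancy difference was -0.02 ± 0.26, with a 95% interval of -0.59 to 0.54, and the 3-week difference 0.27 ± 0.29 (adjusted p = 0.817). The chosen Dnmt1 probe set is of the x_at kind, which can cross-hybridise. For pregnancy the other 2 sets gave 0.11 ± 0.36 (also x_at) and 0.23 ± 0.29. Luminal progenitors and mature luminal cells differed from stem cells by 0.21 ± 0.26 and 0.20 ± 0.26.

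The de novo enzymes Dnmt3a and Dnmt3b did not pass in any comparison either. For Dnmt3a the stem cell values were 9.48 and 10.54 at 3 weeks, 9.97 and 10.85 at 9 weeks, 9.71 and 10.17 on day 10, 10.37 on day 16 and 10.61 in retired breeders. The progenitor values were 10.54 and 10.93 at 3 weeks, 9.97 and 9.52 at 9 weeks, 9.43 on day 10, 9.75 on day 16 and 9.73 in retired breeders. The mature luminal values were 10.60 at 3 weeks, 9.59 and 9.79 at 9 weeks, 9.55 and 10.22 on day 10, 8.91 on day 16, 9.11 on day 19 and 9.68 in retired breeders. Dnmt3a was lower than in stem cells in 4 of 5 stages in each luminal type, by -0.39 in progenitors and -0.52 ± 0.26 (adjusted p = 0.282) in mature luminal cells, and the arrays of the types overlapped. Its pregnancy difference was -0.23 ± 0.26 (adjusted p = 0.625), and its 4 further probe sets gave -0.68, -0.36, 0.12 and 0.87 for it. Dnmt3b in stem cells read 9.23 and 9.13 at 3 weeks, 9.96 and 9.37 at 9 weeks, 10.49 and 9.45 on day 10, 8.40 on day 16 and 10.48 in retired breeders. In progenitors it read 8.81 and 8.88 at 3 weeks, 9.09 and 8.65 at 9 weeks, 9.54 on day 10, 9.48 on day 16 and 9.47 in retired breeders. In mature luminal cells it read 9.95 at 3 weeks, 9.31 and 8.40 at 9 weeks, 9.37 and 9.14 on day 10, 8.94 on day 16, 8.39 on day 19 and 8.57 in retired breeders. The highest arrays were stem cells of day 10 and of retired breeders, and both mean differences from stem cells were below 0, -0.30 ± 0.27 and -0.42 ± 0.27 (adjusted p = 0.396), with overlapping arrays.

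The TET genes, whose products oxidise methylated cytosine, differed in signal. Tet2 ran from 9.08 to 11.11, Tet1 from 0.54 to 6.92 and Tet3 from 2.01 to 8.01, the latter 2 partly below the array medians, where differences can include background. Tet2 differed from 9 weeks by -0.72 ± 0.31 (adjusted p = 0.177) in pregnancy, below 0 in 3 of 3 cell types, and with the replicate term by -0.51 (adjusted p = 0.163). It was among the members that differed with the replicate number, 0.65 higher in replicate 1. Tet3 differed by -1.40 ± 0.54 (adjusted p = 0.128) in pregnancy and -2.49 ± 0.69 (adjusted p = 0.592) in retired breeders, below 0 in 3 of 3 types each time. The retired breeder arrays read 4.99 in stem cells, 3.92 in luminal progenitors and 2.30 in mature luminal cells, below all 6 of the 9-week arrays, which lay between 5.83 and 6.85. Within luminal progenitors alone the pregnancy difference of Tet3 was -3.14 ± 0.97 (adjusted p = 0.209), with 4.39 on day 10 and 2.01 on day 16. Tet1 had the largest difference between luminal progenitors and stem cells, -1.52 ± 0.81 (adjusted p = 0.345), and its 3-week stem pair read 0.59 and 6.19. Its 3 further probe sets differed by 1.12 to 2.59 in pregnancy, where the chosen set differed by -0.05.

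Of the 5 PRC2 members none passed. Ezh2, the methyltransferase linked to dividing cells, read 8.55 and 9.53 at 3 weeks, 8.65 and 9.56 at 9 weeks, 9.25 and 9.51 on day 10, 9.05 on day 16 and 10.17 in retired breeders in stem cells. Progenitor arrays read 8.79 and 9.52 at 3 weeks, 8.22 and 8.90 at 9 weeks, 9.57 on day 10, 9.69 on day 16 and 9.74 in retired breeders. Mature luminal arrays read 9.93 at 3 weeks, 8.13 and 8.78 at 9 weeks, 8.82 and 9.84 on day 10, 9.57 on day 16, 8.29 on day 19 and 9.44 in retired breeders. All retired breeder and pregnant arrays of days 10 and 16 lay above both 9-week arrays of their type in the luminal cells, while in stem cells only the retired breeder array did. Its difference from 9 weeks was 0.72 ± 0.31 (adjusted p = 0.174) in pregnancy, 0.67 ± 0.35 (adjusted p = 0.531) at 3 weeks and 1.08 ± 0.40 (adjusted p = 0.663) in retired breeders. Ezh2 also differed by -0.75 between replicate 1 and the arrays paired with it. With the replicate term its pregnancy and retired breeder differences were 0.48 (adjusted p = 0.126) and 0.70 (adjusted p = 0.599). Between cell types it differed by -0.01 ± 0.31 in progenitors and 0.00 ± 0.31 in mature luminal cells against stem cells, with intervals of -0.68 to 0.67 and -0.68 to 0.67.

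Ezh1, the paralogue typical of resting cells, read 6.99 and 7.87 at 3 weeks, 7.53 and 7.10 at 9 weeks, 6.18 and 7.27 on day 10, 8.03 on day 16 and 7.79 in retired breeders in stem cells. In progenitors the values were 7.72 and 7.47 at 3 weeks, 7.34 and 6.85 at 9 weeks, 7.59 on day 10, 7.04 on day 16 and 7.76 in retired breeders. In mature luminal cells the values were 8.35 at 3 weeks, 7.73 and 8.33 at 9 weeks, 6.73 and 7.06 on day 10, 7.11 on day 16, 6.63 on day 19 and 7.86 in retired breeders. The values of pregnancy and 9 weeks overlapped in stem cells and progenitors, and over all types the difference was -0.25 ± 0.32 (adjusted p = 0.67). Within mature luminal cells it was -1.03 ± 0.53 (adjusted p = 0.479), where both 9-week arrays lay above the 3 arrays of days 10 and 16. Of the other PRC2 members, Suz12, a core subunit, differed by -0.47 ± 0.24 in pregnancy, Eed, which binds the methyl mark, by -0.32 ± 0.34, and Jarid2, which helps recruit the complex, by 0.54 ± 0.27. Eed differed by 0.86 and Jarid2 by -0.59 between replicate 1 and the arrays paired with it, and with the replicate term their pregnancy differences were -0.04 and 0.34.

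Among the 15 PRC1 members Phc3, a Polyhomeotic subunit that links complexes together, passed in pregnancy with the replicate term. Its stem cell values were 9.16 and 9.73 at 3 weeks, 9.03 and 10.34 at 9 weeks, 8.60 and 8.52 on day 10, 9.09 on day 16 and 9.82 in retired breeders. Its progenitor values were 9.57 and 10.05 at 3 weeks, 9.89 and 9.85 at 9 weeks, 9.06 on day 10, 8.99 on day 16 and 9.92 in retired breeders. Its mature luminal values were 10.09 at 3 weeks, 9.24 and 10.05 at 9 weeks, 9.41 and 9.27 on day 10, 8.64 on day 16, 9.31 on day 19 and 9.99 in retired breeders. Both pregnant progenitor arrays lay below both 9-week ones, whereas in stem and mature luminal cells the 9-week replicate 1 array was below at least 1 pregnant array. The difference was -0.79 ± 0.28 (adjusted p = 0.102), below 0 in 3 of 3 types, and -0.93 (adjusted p = 0.021) with the replicate term. It was -1.15 (adjusted p = 0.0298) within the other 15 arrays and -0.21 (adjusted p = 0.841) within replicate 1. Without the replicate term it passed when the 9-week stem replicate 1 array was left out (adjusted p = 0.0332). Another Phc3 probe set, below the filter, gave 0.47 ± 0.63. The paralogue Phc1 differed the other way, 0.55 ± 0.24 (adjusted p = 0.172) in pregnancy and 0.61 ± 0.27 (adjusted p = 0.426) at 3 weeks, above 0 in 3 of 3 types each time, and Phc2 by -0.06 ± 0.34.

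Cbx8, which encodes a CBX reader of methylated H3, gave the largest positive difference between cell types. It was higher in mature luminal than in stem cells in 5 of 5 stages, by 0.49 to 1.86, with a mean of 1.15 ± 0.43 (adjusted p = 0.135). The difference was 1.38 (adjusted p = 0.0496) within the 15 arrays not titled replicate 1, which called 11.4% of all genes. Its stem arrays ran from 3.25 to 6.39 and its mature luminal arrays from 4.04 to 7.22, so the types overlapped, and the low end lies below the array medians. Cbx7 was also higher in 5 of 5 stages, by 0.59 ± 0.33 (adjusted p = 0.335). The other CBX genes differed by 0.04 ± 0.51 (Cbx2) and -0.10 ± 0.37 (Cbx6). Between replicate 1 and the arrays paired with it these 2 differed by 1.22 and -1.04.

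Among the PCGF subunits, Bmi1, best known from stem cell self-renewal, ran from 8.45 to 9.91 and differed from stem cells by 0.34 ± 0.23 in progenitors and 0.29 ± 0.23 in mature luminal cells, above 0 in 4 and 3 of 5 stages. The E3 ligase genes Ring1 and Rnf2 differed in pregnancy by 0.60 ± 0.39 and -0.22 ± 0.22. Pcgf5, a subunit of variant PRC1, differed by 0.68 ± 0.29 (adjusted p = 0.425) at 3 weeks, above 0 in 3 of 3 types, and its highest array was the 3-week mature luminal one at 11.57. Pcgf1, Pcgf2, Pcgf3 and Pcgf6 differed in pregnancy by -0.09 ± 0.37, 0.15 ± 0.44, -0.12 ± 0.34 and 0.36 ± 0.29. Over the 15 PRC1 members 8 differences in pregnancy were above 0 and 7 below, with a median of 0.15.

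Kmt2d, which encodes an H3K4 methyltransferase of enhancers, was the member that fell in pregnancy. Its values in stem cells were 11.81 and 11.51 at 3 weeks, 11.69 and 12.00 at 9 weeks, 11.59 and 10.93 on day 10, 11.07 on day 16 and 11.80 in retired breeders. In luminal progenitors the arrays read 11.53 and 11.42 at 3 weeks, 11.79 and 11.10 at 9 weeks, 10.40 on day 10, 10.69 on day 16 and 11.17 in retired breeders. In mature luminal cells the arrays read 11.66 at 3 weeks, 11.86 and 11.70 at 9 weeks, 11.90 and 11.49 on day 10, 10.77 on day 16, 11 on day 19 and 11.29 in retired breeders. Every pregnant stem and progenitor array of days 10 and 16 lay below both 9-week arrays of its type, while in mature luminal cells the day-10 replicate 1 array, at 11.90, lay above them. The difference was -0.71 ± 0.19 (adjusted p = 0.0429), from -0.90 to -0.55 in the 3 types, and -0.61 (adjusted p = 0.023) with the replicate term. It no longer passed without the pregnant luminal progenitor arrays, the ones with the highest fibroblast markers. The difference over stem and mature luminal cells alone was then -0.61 (adjusted p = 0.169). Within the arrays titled replicate 1, where the pregnancy comparison uses day 10 alone, it was -0.09 (adjusted p = 0.9), and within the other arrays -0.71 (adjusted p = 0.0782). The day-19 array, also titled replicate 1, was outside this comparison. It read 11, against 11.86 on the 9-week mature luminal array of that number. Restricted to the paired groups with the replicate term, with day 10 of stem and mature luminal cells alone, the pregnancy difference was -0.34 (adjusted p = 0.368). Leaving out 1 array at a time kept it between -0.82 and -0.56, with adjusted p-values from 0.0295 to 0.136, and it passed in 10 of 23 cases. The 13 arrays without which it did not pass were the 3-week stem and progenitor pairs, 9-week stem replicate 2, 9-week progenitor replicate 1, both 9-week mature luminal arrays, day-10 stem replicate 2, the day-10 progenitor array, day-10 mature luminal replicate 2 and the day-16 stem and mature luminal arrays. A second Kmt2d probe set, below the filter, gave 0.45 ± 0.58. In luminal progenitors it read lower than in stem cells in 5 of 5 stages, -0.49 ± 0.19 (adjusted p = 0.177), and the retired breeder difference was -0.27 ± 0.24 (adjusted p = 0.715).

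Its relative Kmt2a, the methyltransferase known from leukaemia translocations, had a pregnancy difference of -0.91 ± 0.29 (adjusted p = 0.0775), below 0 in 3 of 3 types but from -1.60 in progenitors to -0.04 in stem cells. The progenitor arrays read 10.96 and 9.30 at 9 weeks, 7.95 on day 10 and 9.11 on day 16. It passed without the 9-week progenitor replicate 2 array, at -1.19 (adjusted p = 0.0198), after quantile normalization, at -0.98 (adjusted p = 0.0459) and by its second probe set, at -1.44 (adjusted p = 0.0246). Against stem cells it differed by -0.65 ± 0.29 (adjusted p = 0.247) in progenitors.

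**Figure D4:**
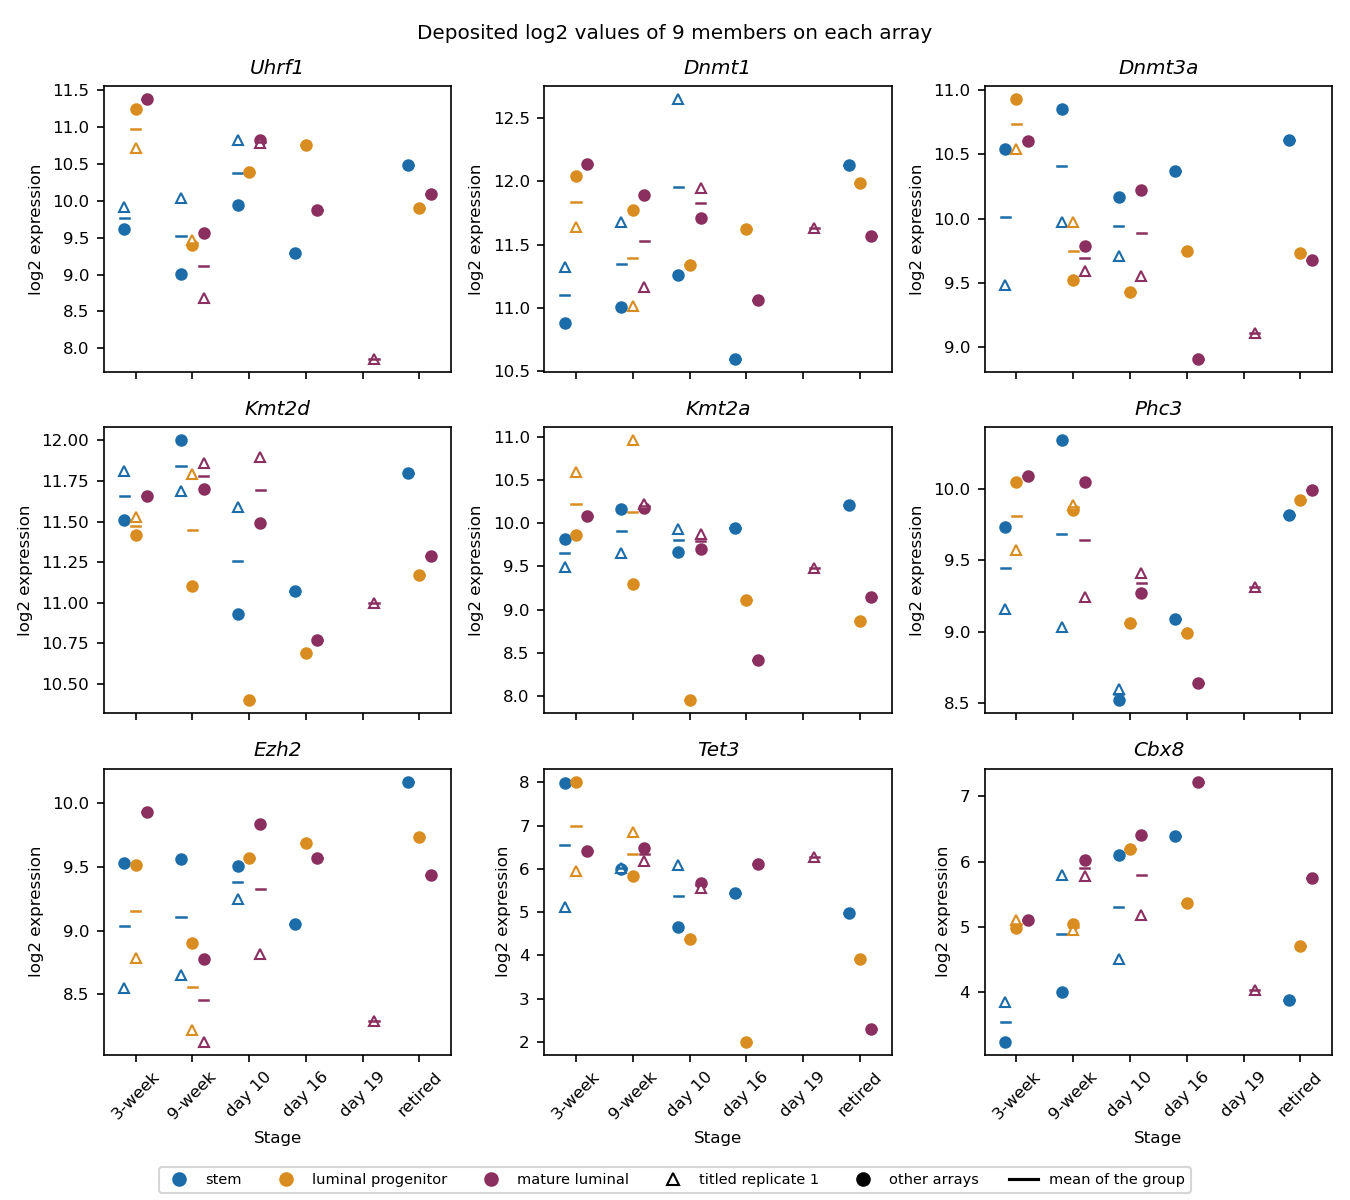
Deposited log2 value (y axis) of 9 members on every array by stage (x axis) and cell type (colour), with open triangles for arrays titled replicate 1, filled circles for the other arrays and bars for group means. Kmt2d in pregnant stem and progenitor cells lies at 10.40 to 11.59, below the 9-week arrays of the same type, and Uhrf1 falls to 7.86 on day 19.

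The remaining histone enzymes passed in no comparison. Among demethylases, Kdm6b, which removes methyl groups from H3K27, differed by -0.63 ± 0.24 (adjusted p = 0.121) in pregnancy, but its probe set is of the x_at kind, like those of Dnmt1 and Phc2, and its other 2 sets gave 0.50 and -0.93. Without the 9-week progenitor replicate 2 array the difference passed, at -0.83 (adjusted p = 0.0404). Kdm1a, the H3K4 demethylase LSD1, was 0.88 higher in replicate 1, and its pregnancy difference went from -0.27 ± 0.30 to 0.03 with the replicate term. Kdm5b and Kdm4a differed by -0.32 ± 0.28 and 0.42 ± 0.30. For the H3K36 enzymes, Setd2 was lower in mature luminal than in stem cells in 4 of 5 stages, -0.54 ± 0.22 (adjusted p = 0.175), and lower in pregnancy in 3 of 3 types, -0.48 ± 0.23 (adjusted p = 0.216), whereas Nsd1 differed by 0.07 ± 0.26 and 0.16 ± 0.26. The H3K9 enzymes Setdb1, Ehmt1 and Ehmt2 differed in pregnancy by 0.59 ± 0.28 (adjusted p = 0.214), 0.38 ± 0.25 (adjusted p = 0.377) and 0.61 ± 0.42 (adjusted p = 0.394), and Suv39h2 by -0.09 ± 0.40. Ehmt2, known as G9a, had 1 of the wider ranges, 6.83 to 10.30.

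Within single cell types the pregnancy comparison called no member. Among all genes 0.26% passed in stem cells, 0.156% in luminal progenitors and 2.25% in mature luminal cells, or 2.2%, 1.26% and 7.23% with the replicate term, and the members with an unadjusted p under 0.05 numbered 0, 4 and 2, against 12.1%, 12.8% and 12.8% of all genes. In stem cells the endothelial markers had a median pregnancy difference of -3.06, with none called. In progenitors the median was 3.20 for the fibroblast and stromal, 3.36 for the leukocyte and 3.06 for the 12 basal markers, with none called. Of 12 luminal markers 1 was lower in stem cells (median -0.43), 0 in progenitors (median -0.95) and 3 in mature luminal cells (median -0.16). With the replicate term 7 of 10 endothelial markers were lower in pregnant stem cells (median -3.03), 1 of 10 fibroblast and stromal markers was higher in pregnant progenitors (median 3.09), and the leukocyte median there was 1.88 with 0 of 9 called. Their part was not tested. The 4 in progenitors were Tet3, Kmt2a, Kmt2d and Uhrf1, and the 2 in mature luminal cells were Uhrf1, 1.22 ± 0.45 (adjusted p = 0.236), and Kmt2a, -1.10 ± 0.49 (adjusted p = 0.371). The difference between the pregnancy effects in mature luminal and stem cells was tested as an interaction and called 0 members, and 0 had an unadjusted p under 0.05. Among all genes 0.013% passed (0.735% with the replicate term) and 5.86% had an unadjusted p under 0.05. For Uhrf1 it was 0.91 ± 0.63 (adjusted p = 0.972) and for Kmt2d 0.13 ± 0.45 (adjusted p = 1). With a median half-width of 1.54 for its 95% interval, the interaction could not resolve changes of the size seen here. Days 16 and 10 of pregnancy were likewise compared with wide intervals, 0.87 at the median. The mean differences of the 4 DNA methylation genes were all below 0, from -0.65 for Dnmt3b, -0.61 for Dnmt1 and -0.55 for Uhrf1 to -0.07 for Dnmt3a, each with an adjusted p of 1.

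Late pregnancy is represented by 1 mature luminal array of day 19, titled replicate 1, which was described and not tested. It was the lowest of the 23 arrays for 6 members, Dnmt3b (8.39), Uhrf1 (7.86), Ring1 (6.75), Cbx2 (3.25), Phc1 (7.21) and Nsd1 (6.81), and the highest for 0. Of the 39 members 32 read lower there than on the 9-week mature luminal array of the same replicate number and 33 lower than on the day-10 one, beside 60.7% and 57.1% of all genes. The part of the array's low overall scale in these counts was not tested. In that replicate Uhrf1 went from 8.68 at 9 weeks to 10.78 on day 10 and 7.86 on day 19. Dnmt1 read 11.17, 11.95 and 11.63 on the same 3 arrays. The array also had the lowest mean of the 28 cell cycle genes, 6.42, and the highest milk protein mean, 13.69, and the part of either in the member values was not tested.

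Because several of these enzymes act at replication, each member was compared over the 23 arrays with the mean of a list of 28 cell cycle genes that holds no member. Of 39 members 2 correlated past an adjusted permutation p of 0.05. The correlation was not computed for all genes, so whether this count is high or low for these arrays is not known. Uhrf1 had a Pearson r of 0.828 (permutation p = 1e-05, the smallest that 100000 resamples give, adjusted 0.00039) and a Spearman rho of 0.760 (adjusted permutation p = 0.00351). Within the 8 arrays titled replicate 1 its r was 0.972 (exact permutation p = 0.000124) and within the other 15 it was 0.724 (permutation p = 0.00219, adjusted 0.0854). Leaving out the 2 arrays farthest from the median of the list, the day-19 mature luminal and the 9-week stem replicate 2 arrays, gave 0.734 (adjusted permutation p = 0.00975). Phc1 had an r of 0.653 (permutation p = 0.00083, adjusted 0.0162) and a rho of 0.599 (adjusted permutation p = 0.0618). Without those 2 arrays its r was 0.517 (adjusted permutation p = 0.16), no longer past the threshold. It was 0.812 within replicate 1 and 0.490 within the other arrays. Ezh2 followed with 0.527 (adjusted permutation p = 0.0932), whereas Dnmt1 had 0.199 (adjusted permutation p = 0.542), Dnmt3a 0.076 and Dnmt3b 0.257. All these permutations treat the arrays as exchangeable. Arrays of a group and arrays that share a replicate number resemble each other, so the p-values may be too small.

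**Figure D5:**
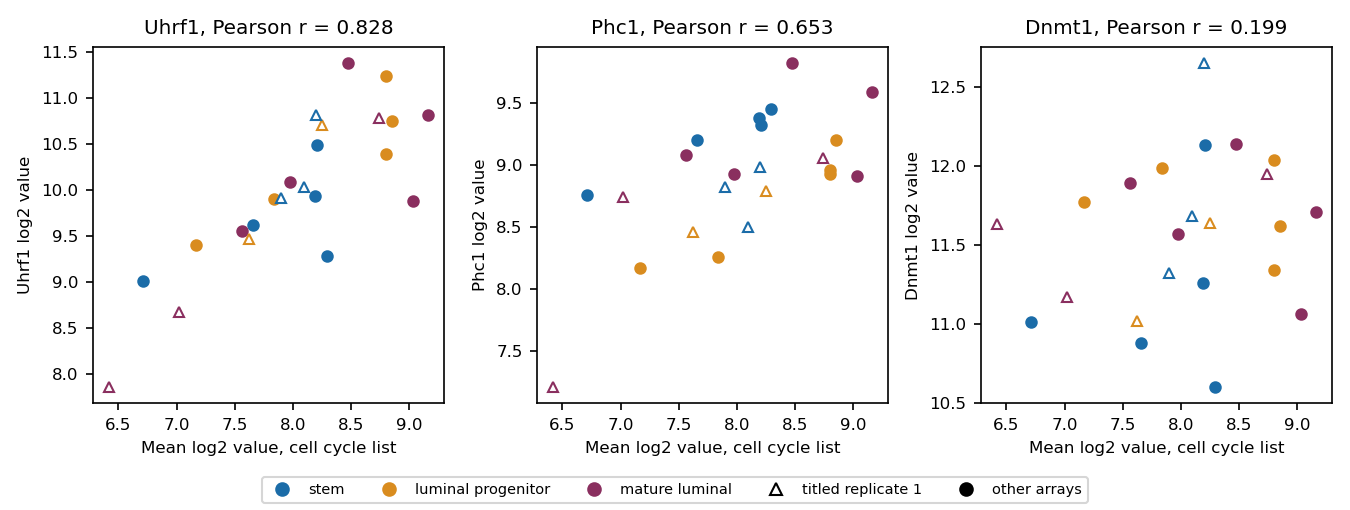
Log2 value (y axis) of Uhrf1, Phc1 and Dnmt1 on each of the 23 arrays against the mean log2 value of 28 cell cycle genes (x axis), coloured by cell type, with open triangles for replicate 1. Uhrf1 rises along the axis (r = 0.828), Phc1 less tightly (r = 0.653), and Dnmt1 least (r = 0.199). The lowest Uhrf1 value, 7.86, lies at the low end of the axis, at 6.42. Its highest, 11.38, lies at 8.47 and not at the high end, 9.16.

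The promoters of the members were searched for the E2F-type octamers that precede many replication genes, to set this beside the correlation. Windows of 250 bases before to 50 after the annotated start (RefSeq, mouse build GRCm38.p6) were found for 36 of the 40 members; Cbx2, Kdm6b, Pcgf1 and Nsd1 were not matched. The letters TTTCCCGC, TTTCGCGC, TTTGCCGC and TTTGGCGC, sought on both strands, occurred in 5 of these 36 genes (13.9%), in 5 of 24 cell cycle genes (20.8%) and in 704 of 27025 genes in all (2.6%). A match is a description of the letters and not a bound site. The measured members with a match were Uhrf1 (in 1 of its 2 windows), Dnmt1 (in 1 of 3), Ezh2 and Suz12. The stretches around it are shown 5′ to 3′ on the gene's strand, with the match in capitals, so that their letters can be compared.
Uhrf1, chr17:56304088.0-56304175.0 (+ strand): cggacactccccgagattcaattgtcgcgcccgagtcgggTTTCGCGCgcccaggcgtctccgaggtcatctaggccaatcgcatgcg
Dnmt1, chr9:20952795.0-20952873.0 (minus strand): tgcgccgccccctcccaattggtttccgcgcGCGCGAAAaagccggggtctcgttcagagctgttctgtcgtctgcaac
Ezh2, chr6:47595006.0-47595067.0 (minus strand): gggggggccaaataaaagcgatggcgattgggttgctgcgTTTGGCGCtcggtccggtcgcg
Suz12, chr11:79992856.0-79992934.0 (+ strand): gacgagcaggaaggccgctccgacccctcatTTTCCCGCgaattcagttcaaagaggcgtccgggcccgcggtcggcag
Uhrf1 and Dnmt1 share the octamer TTTCGCGC, which in Dnmt1 is read from the opposite strand as GCGCGAAA. Dnmt1 also held TTTGGCGC, the octamer of Ezh2, with its first base 33 bases after the start, outside the stretch shown. The correlations of Uhrf1 and Dnmt1 with the cell cycle genes were 0.828 and 0.199. Phc1, the second gene that correlated, had a window without any of the 4 octamers.

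Other enzymes of the same pathways, in 5 lists with 83 genes of which 77 were kept, gave calls at a share near or below that of all genes without the replicate term. Against stem cells, 3 of the 77 were lower in luminal progenitors: Asxl1, a subunit of the Polycomb deubiquitinase, by -1.04, Gadd45b, linked to DNA demethylation, by -0.93, and Trim28, a corepressor that recruits Setdb1, by -0.89. In mature luminal cells 1 was lower, Bcor, a variant PRC1 subunit, by -1.39 (adjusted p = 0.0318). In pregnancy 2 were higher, Atf7ip, a Setdb1 partner, by 1.05, and Dpy30, a subunit of the H3K4 methyltransferase complexes, by 1.02. The H3K4 demethylase Kdm5c was lower, by -0.97 (adjusted p = 0.0244). The replicate term raised these counts to 6 lower for progenitors, 1 higher and 5 lower for mature luminal cells, and 8 higher and 5 lower in pregnancy. The shares called were 3.9%, 1.3% and 3.9% of the 77 in these 3 comparisons, beside 4.38%, 8.34% and 7.13% of all genes, and 7.79%, 7.79% and 16.9% with the replicate term, beside 14.4%, 19.7% and 15.6%. At 3 weeks, between days 16 and 10 and in retired breeders 0 of the 77 passed, and 8, 0 and 3 had an unadjusted p under 0.05.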

How the data were processed

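Expression on a log2 scale was deposited by the authors in a single table of 45101 probe sets by 23 arrays. That it is log2 was read from the range of the deposited values, 0 to 14.28. The software for summarising, background correction and scaling was not given in the sources used here, and no detection calls were used, so differences of low values can include background. Probe sets were named through the platform annotation (34945 with 1 symbol, 932 with several, 9160 with none). Samples were grouped by the stage and cell type in the labels. The members, the gene lists and the comparisons were chosen with earlier results of these data known. A linear model with 1 mean per group (limma 3.58.1, R 4.3.3, eBayes with an intensity trend) was fitted to all arrays, with 7 residual and 4.74 prior degrees of freedom. Single arrays were taken to vary as the pairs do. Within replicate 1 or the other arrays alone, where no group has 2 arrays, the model had additive terms for stage and cell type. The 11 comparisons give equal weight to stages or cell types, and all tests are two-sided. Values after ± are standard errors.

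Whether the replicate numbers in the titles pair the arrays was checked by correlating deviations from the group means between groups: all 21 pairs of groups lay above 0.1, from 0.303 to 0.682. The replicate term codes the 8 arrays titled replicate 1 against the other 15, unnumbered arrays included (6 residual and 6.63 prior degrees of freedom). Its size is estimated from the 7 groups of 2 alone. Any 2 arrays differed in at least 98.5% of their probe sets. For arrays, their number limits the precision. Genes were named by a rule: those called with or without the replicate term and Dnmt1, Dnmt3a, Dnmt3b, Uhrf1, Ezh1 and Ezh2 with every value, all other members by differences, and other genes by counts with up to 3 of each list. The scripts were tested on simulated data.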

Additional observations from a re-analysis of the deposited data

How the results depend on the processing

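Besides the replicate block, the alternatives were a block within the paired groups, fits within replicate 1 or the other arrays, quantile normalization, low values raised to the array median, no filter, second probe sets, 2 pairs of arrays left out and each array left out. The number of members called in pregnancy was 1 as reported, 3 with the replicate block, 2 after quantile normalization, 2 with second probe sets, 0 within the replicate 1 arrays and 0 without the pregnant progenitor arrays of both days. It stayed at 1 in the paired groups with the replicate block and within the other 15 arrays, but the gene called was Uhrf1 and Phc3, not Kmt2d. With 1 array left out it ranged from 0 to 3. Without the 9-week stem replicate 1 array or the 9-week luminal progenitor replicate 2 array it was 3. At 3 weeks the count of 0 became 1 with the replicate block and 1 with low values raised, and for mature luminal against stem cells it became 1 within the other 15 arrays. The count of members that correlate with the cell cycle list, 2, became 1 within replicate 1, 0 within the other arrays, 1 without the 2 farthest arrays and 1 after quantile normalization. The replicate block changed no other call of a member. No value past the threshold changed sign under these alternatives, which use no probe set below the filter; such sets of Kmt2d and Phc3 read the other way (0.45 and 0.47). Fits within the other 15 arrays cannot give the comparisons within 1 cell type or the interaction. Precision was limited by 9 groups of 1 array: the median half-width of a member's 95% interval was 0.64 for pregnancy and 1.09 to 1.16 within a cell type.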

Other observations

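The replicate number in the array titles separated several members. With 1 term for it, estimated from the paired arrays, 11 of 39 members (28.2%) differed between replicate 1 and the arrays paired with it. Among all genes the share was 31.7%, and 7 of the 11 were higher in replicate 1. The largest were Tet1, -1.94, Cbx2, 1.22, Pcgf2, 1.17, and Cbx6, -1.04. No array of day 16 or of retired breeders was titled replicate 1.

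Probe sets of 1 gene often disagreed. Of the 28 members with a further probe set above the filter, all sets pointed the same way in 15 for pregnancy, 14 for 3 weeks, 17 for luminal progenitors against stem cells and 20 for mature luminal against stem cells.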
